A study of Felis catus with 2 samples.

Results

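Collagens are the main structural proteins of the extracellular matrix, and the transcripts of 36 collagen chains were measured in the anterior eye of a normal cat and of a cat with primary congenital glaucoma (PCG). The chains were chosen by name: every listed gene with a single name made of COL, a type number, A and a chain number was taken, except the cartilage and vitreous chains COL2A1, COL9A1, COL9A2 and COL9A3. They are 36 of the 19181 genes that carry a single name, in a table of 32065 loci. Of the 36, 8 encode fibrillar chains, 6 basement membrane chains, 6 chains of fibril-associated collagens (FACIT) and 16 other collagens, which comprise beaded filament, network, multiplexin and transmembrane chains and COL26A1.

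Every collagen molecule is a triple helix of chains, which can be the products of the same gene or of different genes. Fibrillar collagens form the cords that give sclera and cornea their strength, FACIT chains lie on the surface of those fibrils, and type IV collagen is the sheet that carries epithelia, endothelia and the beams of the trabecular meshwork. Beaded filaments of type VI surround cells, type VIII forms the lattice of the corneal endothelium's basement membrane, and multiplexins sit where basement membranes meet the tissue around them. In glaucoma the matrix of the outflow pathway is of interest because aqueous humour leaves the eye through it.

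The study followed a recessive form of PCG in a cat colony, in which the disease gene is LTBP2, a protein of the microfibrils. The tissue was a dissection of the aqueous outflow region, from which polyadenylated RNA was sequenced, and it took in ciliary body, trabecular meshwork and some sclera beside the iridocorneal angle. The affected library was made from 1 cat with PCG and the normal library from 1 healthy cat unrelated to it, both 2 months old, and no treatment is stated for either. Each condition therefore has 1 library, so no difference has a replicate check or a test, and animal, dissection and disease cannot be told apart. In bulk tissue, fewer cells of a type and less RNA per cell cannot be told apart either.

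Values are FPKM, the number of fragments divided by exon length and by the size of the library, so levels are per length and can be set side by side between genes. A log2 ratio is the log2 of (affected + 1)/(normal + 1) in FPKM, which understates the difference of low genes. A gene past 2-fold had a log2 ratio of at least 1 or at most -1, and loci were counted where 1 library or both reached 1 FPKM. A gene that reached it in 1 library alone entered through the library where it was high, which favours its being counted as different, and those so counted are named with their list or class. The values summed to 649113 FPKM in the normal cat and 672893 FPKM in the affected cat. The steps between low values gave a scale of about 71000000 fragments for the normal and 67600000 fragments for the affected cat. At that scale 10 FPKM on 1 kilobase of transcript stood for 710 and 676 fragments. For a transcript of that length the counting error of a log2 ratio was 0.03 for COL1A1, the most abundant chain, and 0.60 for COL28A1, one of the rarest. It does not include the difference between animals. Of 6 listed markers of the trabecular meshwork, the 3 with the highest mean level are given here. They do not settle which tissues the dissections held. MYOC was listed at 149.7 FPKM in the normal cat and 301.5 FPKM in the affected cat, MGP at 454.9 and 52.9 FPKM, and PDPN at 59.9 and 66.5 FPKM.

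Most collagen chains were lower in the affected cat. Of the 36 chains, 34 reached 1 FPKM in a library, and among these 20 were at least 2-fold lower in the affected library, 5 were at least 2-fold higher and 9 lay between. Among the 20 lower chains, COL24A1 and COL28A1 reached the minimum only through the normal library, and COL8A2, COL6A6, COL4A6, COL4A3 and COL27A1 share their spans with another locus. Of the 5 higher chains 4 have a doubt described with their classes. COL1A2 is listed at 0 in the normal library, the name of COL22A1 is in doubt, and COL19A1 and COL18A1 share their spans with another gene. Without the listed 0 there were 4 higher chains, and without COL19A1 and COL22A1, left out after the values were seen, there were 3. Over all 16676 loci past the same minimum, 8.75% were 2-fold lower and 8.14% were 2-fold higher. At least 4-fold lower were 13 of the 34 chains, against 1.79% of all loci. The median log2 ratio of the chains was -1.35, against -0.0047 over all loci. Leaving out chains with a mean under 5 FPKM left 25, of which 16 were 2-fold lower, 5 were 2-fold higher and the median was -2.18, where 6.46% of all loci at that level were 2-fold lower. Lower chains were found in each range of level. Of 11 chains with a mean of at least 50 FPKM 6 were 2-fold lower, of 13 with a mean of 10 to 50 FPKM 9 were, and of 10 with a mean under 10 FPKM 5 were. These last 5 include COL24A1 and COL28A1, and COL27A1 and COL21A1, which lay close to the threshold. All 5 higher chains had a mean of at least 10 FPKM.

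**Figure D1:**
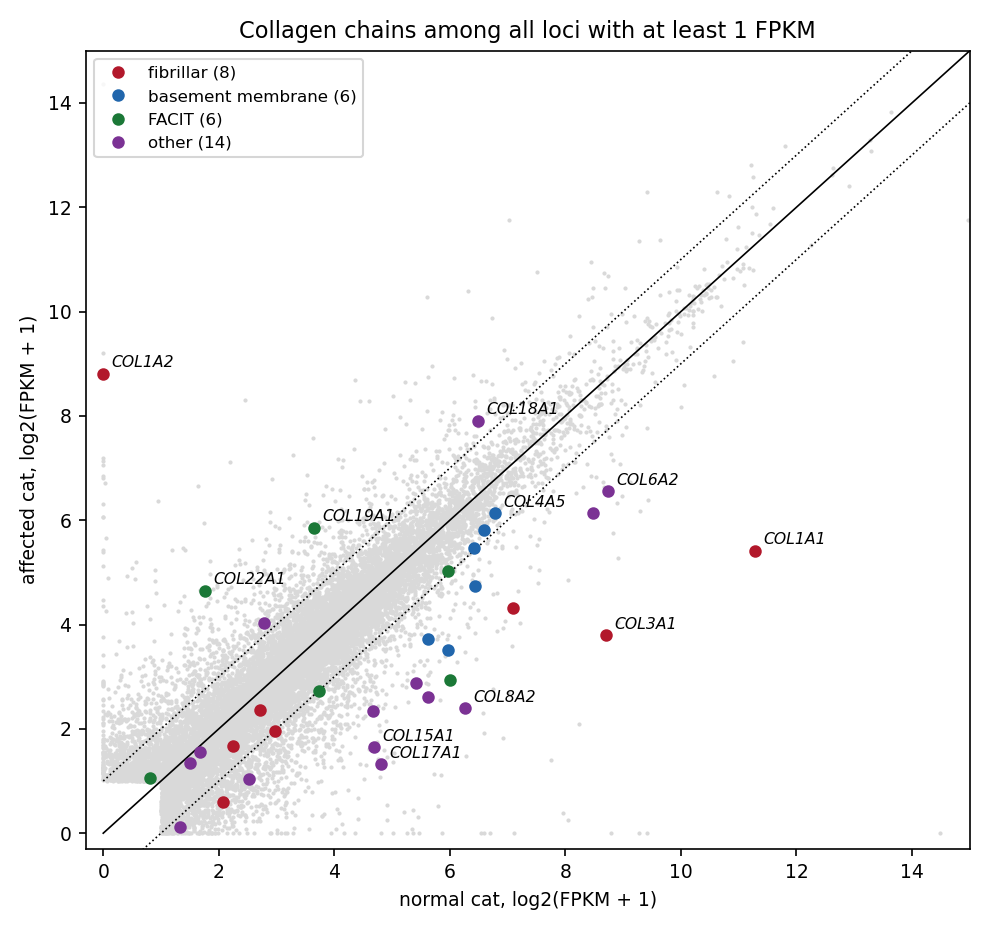
Level in the normal cat (horizontal axis) against level in the affected cat (vertical axis), both as log2(FPKM + 1), for the 34 collagen chains past 1 FPKM, coloured by class, over all 16676 loci past that minimum in grey. The solid line marks equal levels and the dotted lines 2-fold. Most coloured points lie under the lower dotted line, with COL1A1 and COL3A1 farthest from it, and COL1A2 lies on the left edge because it is listed at 0 in the normal library.

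The share of these 36 chains in the transcriptome differed with them. Summed over the 36 chains, the level was 4808 FPKM in the normal cat and 1319 FPKM in the affected cat, which is 0.741% and 0.196% of all summed FPKM. This is not the share of all collagen. The 4 vitreous chains, left out by the rule, made up 0.249% in the normal cat and 0.849% in the affected cat. COL1A1 alone made up 51.5% of the sum in the normal library, and COL1A2 made up 33.9% in the affected library. Without COL1A1 and COL1A2 the sums were 2331 and 830 FPKM, a 2.81-fold difference in the same direction. The number of chains at or above 1 FPKM was 32 in each library, with COL1A2 counted as below it in the normal library by its listed 0. At or above 10 FPKM there were 22 chains in the normal cat and 17 in the affected cat, and at or above 100 FPKM there were 6 and 2. The median chain stood at 26.0 FPKM in the normal cat and 6.52 FPKM in the affected cat. The 5 highest chains of the normal library were COL1A1, COL6A2, COL3A1, COL6A1 and COL5A2, and those of the affected library were COL1A2, COL18A1, COL6A2, COL6A1 and COL4A5.

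**Figure D2:**
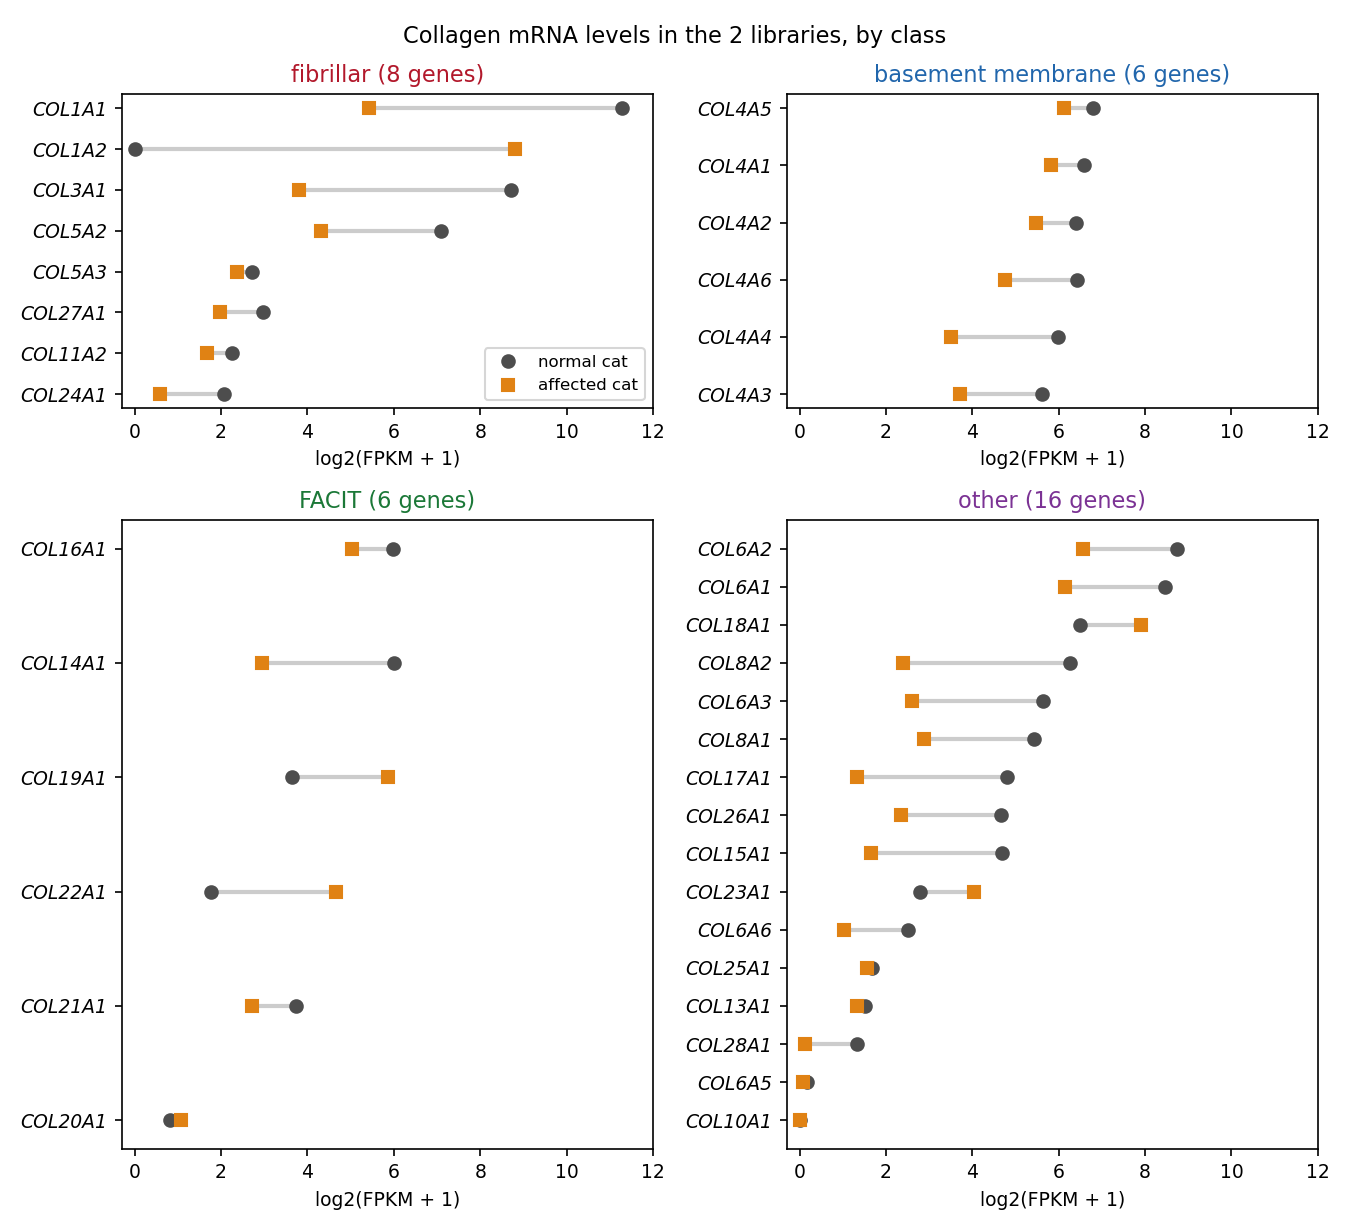
Level of each of the 36 collagen chains in the normal (grey circle) and affected (orange square) cat as log2(FPKM + 1), in 4 panels by class, with chains ordered by mean level. In 3 of the panels most circles lie to the right of the squares, and all 6 basement membrane chains show this order.

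The fibrillar class held the largest differences. COL1A1 encodes the alpha1 chain of type I collagen, the bulk protein of sclera and corneal stroma, and lies on chromosome E1 at 37447828 to 37465310 of the felCat5 assembly, which is the build of all positions given here. It was listed at 2476 FPKM in the normal cat and 41.8 FPKM in the affected cat, a 59.3-fold lower level and a log2 ratio of -5.86. It was the locus ranked 15 by level of 32065 in the normal library and ranked 2177 in the affected one. The alpha2 chain of the same protein, COL1A2, on chromosome A2 at 98170447 to 98207531, was listed at 0 in the normal cat and at 447.2 FPKM in the affected cat. The 2 chains of the one protein thus pointed in opposite directions. Type I collagen is normally built from both chains, so a 0 for COL1A2 beside the highest collagen value of the table can be a failed estimate, and no fold is given for it. It was 1 of 15 loci listed at 0 in 1 library and with at least 100 FPKM in the other, and 9 of these 15 were at 0 in the normal library. In the affected library, where both chains have a value, COL1A2 stood at 10.7 times COL1A1. Whether the COL1A1 value of that library is a sound estimate was not tested, and the 59.3-fold difference rests on it.

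The other abundant fibrillar chains were also far lower. COL3A1, the single chain of type III collagen of pliable and vascular tissue, was listed at 415.4 FPKM in the normal cat and 12.9 FPKM in the affected cat, 32.1-fold lower with a log2 ratio of -4.90. COL5A2, a chain of the type V collagen that sets the diameter of type I fibrils, was at 134.8 and 19.0 FPKM with a log2 ratio of -2.76. These 2 genes are neighbours on chromosome C1, with COL3A1 at 175826684 to 175867738 and COL5A2 beginning 14950 bases further on.

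The less abundant fibrillar chains had log2 ratios closer to 0. COL24A1, a minor chain found with type I collagen, was at 3.21 FPKM in the normal cat and 0.508 FPKM in the affected cat, with a log2 ratio of -1.48. COL27A1, a chain known from developing cartilage, was at 6.82 and 2.91 FPKM, and its log2 ratio of -1.0001 put it just past the threshold. COL5A3, the third chain of type V collagen, was at 5.58 and 4.16 FPKM, and COL11A2, a type XI chain of cartilage, was at 3.75 and 2.20 FPKM. Their log2 ratios were -0.35 and -0.57, so both were within 2-fold.

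Over the 8 fibrillar chains, 5 were 2-fold lower, 2 were within 2-fold and 1, COL1A2, was higher through its listed 0. COL24A1, 1 of the 5, passed the minimum only through the normal library. The median log2 ratio was -1.24, but it was -3.83 over chains averaging 5 FPKM or more and -1.82 with a pseudocount of 0.1 FPKM. The summed level was 3046 FPKM in the normal cat and 531 FPKM in the affected cat. Without COL1A1 and COL1A2 it was 570 and 41.7 FPKM, a 13.6-fold difference, and COL3A1 alone held 415.4 and 12.9 FPKM of these. Without COL1A1 but with COL1A2 the log2 ratio of the sums was -0.22. The COL5A1 locus, which joins 2 names and had the higher value in the affected cat, is not in these sums.

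**Figure D3:**
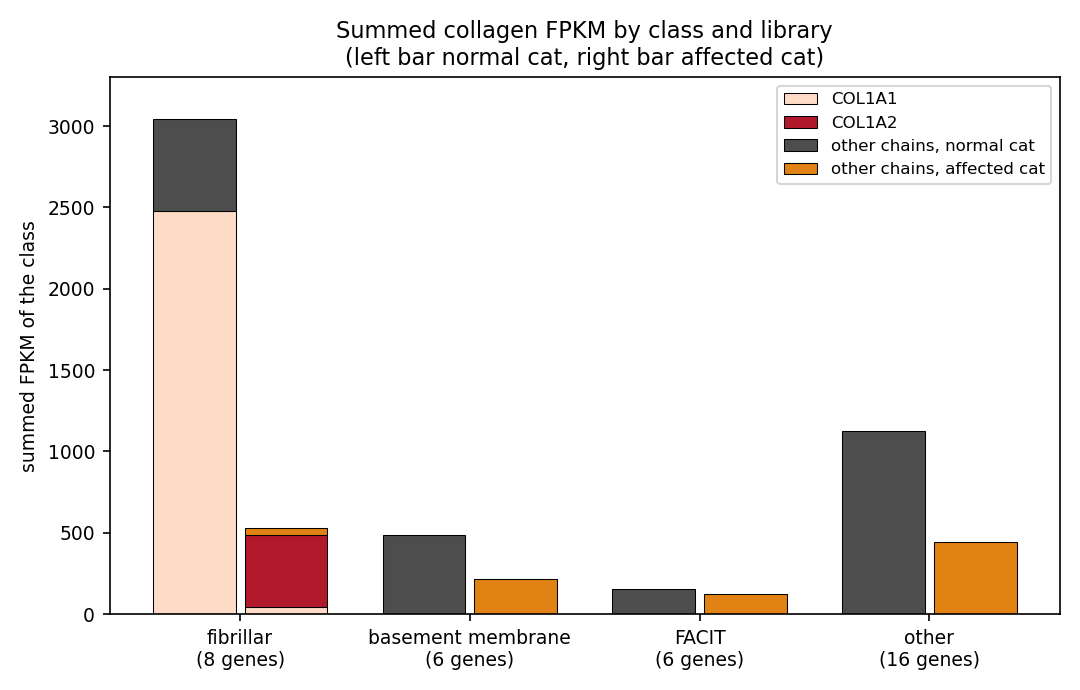
Summed FPKM of each collagen class in the normal (left bar, grey) and affected (right bar, orange) cat, with the parts from COL1A1 (pale) and COL1A2 (red) drawn separately in the fibrillar bars. The fibrillar sums are 3046 and 531 FPKM, COL1A1 fills most of the first and COL1A2 most of the second, and the FACIT sums of 152 and 126 FPKM are the closest pair.

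Markers of the stromal cells that make these fibrils were lower in part. Of 8 measured markers of corneal and scleral stroma, 3 were 2-fold lower, 2 were 2-fold higher and 3 lay between, and their summed level was 2320 FPKM in the normal cat and 1272 FPKM in the affected cat. KERA, a proteoglycan of the corneal stroma, was at 264.7 and 0.190 FPKM. LUM was at 479.5 and 15.6 FPKM and DCN at 685.6 and 82.2 FPKM, both proteoglycans that bind collagen fibrils. In the other direction, MFAP4 was at 70.6 and 246.1 FPKM and PRELP at 87.0 and 196.2 FPKM, while FMOD was at 351.9 and 416.0 FPKM. KERA passed the minimum only through the normal library, and no marker of this list was at 0. The part of the stromal markers in the fibrillar values was not tested.

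All 6 chains of type IV collagen, the basement membrane class, were lower in the affected cat, 3 of them by 2-fold. The COL4A1 and COL4A2 chains form the heterotrimer present in nearly all basement membranes. COL4A1 was listed at 94.9 FPKM in the normal cat and 55.2 FPKM in the affected cat, and COL4A2 at 84.0 and 43.3 FPKM. Their log2 ratios of -0.77 and -0.94 were both short of 2-fold. The pair lies head to head on chromosome A1, 2059 bases apart, from 78983703 to 79312499.

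The other type IV chains, which belong to tissue-restricted networks, ranged more widely. COL4A3 and COL4A4, which form a network with COL4A5 in kidney and eye, lie 1033 bases apart on chromosome C1. COL4A4 was listed at 61.8 FPKM in the normal cat and 10.5 FPKM in the affected cat, and COL4A3 at 48.1 and 12.1 FPKM, with log2 ratios of -2.46 and -1.90. A second locus named COL4A3 with the same span, lower in level, stood at 25.2 and 6.02 FPKM and also had a log2 ratio of -1.90. On the X chromosome, COL4A6, found in the basement membranes of epithelia and smooth muscle, was at 85.4 and 25.8 FPKM with a log2 ratio of -1.69. A locus without a gene symbol has the same span as COL4A6, at 8.15 and 2.23 FPKM. Its neighbour COL4A5, the partner in either network, was at 109.7 and 69.1 FPKM with a log2 ratio of -0.66, the smallest difference of the class. A second locus named COL4A5 was at 21.1 and 14.5 FPKM, with a log2 ratio of -0.51. The basement membrane class summed to 484.0 FPKM in the normal cat and 216.0 FPKM in the affected cat, and its median log2 ratio was -1.31.

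Vascular markers differed in the same direction as type IV collagen. All 9 measured markers of vascular endothelium were lower in the affected library and 6 of them by 2-fold, with a sum of 200.1 FPKM in the normal cat and 69.6 FPKM in the affected cat. None was at 0, and ENG, the highest, was at 41.0 and 16.7 FPKM. Of 8 markers of pericytes and smooth muscle 2 were 2-fold lower and none was 2-fold higher, with sums of 1326 and 1109 FPKM. ACTA2, the smooth muscle actin, was at 600.0 and 699.4 FPKM. The part of vessels or muscle in the type IV values was not tested.

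The FACIT class was mixed. COL14A1, which coats type I fibrils in dense connective tissue, was listed at 63.3 FPKM in the normal cat and 6.67 FPKM in the affected cat, 9.49-fold lower with a log2 ratio of -3.07. COL16A1, a chain found near cells and small fibrils, was at 61.8 and 31.8 FPKM, and its log2 ratio of -0.94 was just short of the threshold. COL21A1, a minor chain of vessel walls, was at 12.3 and 5.58 FPKM, and its log2 ratio of -1.02 was just past it. COL20A1 was close to the minimum in both, at 0.753 and 1.09 FPKM.

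The 2 remaining FACIT chains were higher in the affected cat, and both values are uncertain. COL19A1, on chromosome B2 at 65625794 to 66063518, was at 11.5 FPKM in the normal cat and 57.1 FPKM in the affected cat, with a log2 ratio of 2.21. It is listed with exactly the same span as COL9A1, which was at 403.5 and 1718 FPKM, and the library kit does not mark strand, so reads of the 2 loci cannot be told apart where they overlap. COL22A1 was at 2.39 and 24.1 FPKM with a log2 ratio of 2.89, and is listed on chromosome B2 at 44011448 to 44845627. That span is shared with 18 further loci, and of the 10 nearest named genes 0 lie near COL22A1 in the RefSeq annotation of a later cat assembly, whereas at least 9 of 10 did for every other chain. The name of this locus is therefore in doubt. With both chains the class had 2 higher, 2 lower and 2 within 2-fold, a median log2 ratio of -0.34 and sums of 152.0 and 126.3 FPKM. Without them, a choice made after the values were seen, the median of the 4 others was -0.98 and the sums were 138.1 and 45.1 FPKM. With all 6 chains, the mean of the class in place of its median was 0.056, so its direction turned with the summary.

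The type VI collagens, beaded filaments that link cells to the fibrils around them, were lower throughout. COL6A2 was listed at 423.8 FPKM in the normal cat and 92.9 FPKM in the affected cat, and COL6A1 at 353.9 and 69.7 FPKM, with log2 ratios of -2.18 and -2.33. These 2 chains lie 128140 bases apart on chromosome C2, and their ratios differed by only 0.15 on the log2 scale. COL6A3, the large chain that joins them in the molecule, was at 48.5 and 5.12 FPKM with a log2 ratio of -3.02. COL6A6, which can take the place of COL6A3, was at 4.72 and 1.04 FPKM with a log2 ratio of -1.48, and shares its listed span with PIK3R4, at 8.48 and 8.46 FPKM. COL6A5 was under the minimum, at 0.125 and 0.0626 FPKM. COL28A1, a related chain known from peripheral nerve, was at 1.53 and 0.0895 FPKM with a log2 ratio of -1.21. COL28A1 passed the minimum only through the normal library, so its count as lower was favoured by the minimum. The 4 type VI chains that reached 1 FPKM in both libraries were 2-fold lower, and with COL28A1 and COL6A5 the group summed to 832.6 FPKM in the normal cat and 168.9 FPKM in the affected cat. Of 8 markers of nerve and Schwann cells 3 were 2-fold lower and 1, MBP, was 2-fold higher, with sums of 212.0 and 167.2 FPKM. NGFR, 1 of the 3 lower, passed only through the normal library. PMP22, the highest of them, was at 88.3 and 59.5 FPKM, and the part of nerve in the COL28A1 value was not tested.

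The hexagonal network chains showed one of the strongest differences. COL8A2, on chromosome C1 at 26864979 to 26892300, was listed at 76.2 FPKM in the normal cat and 4.28 FPKM in the affected cat, 17.8-fold lower with a log2 ratio of -3.87. The same span is listed for ADPRHL2, at 24.3 and 23.9 FPKM. COL8A1 was at 41.7 and 6.38 FPKM with a log2 ratio of -2.53. Both chains build the lattice of Descemet's membrane, the basement membrane of the corneal endothelium, and also occur in the trabecular meshwork. COL10A1, the third network chain and a product of hypertrophic cartilage, was under the minimum, at 0.00625 and 0.0133 FPKM. Markers of corneal endothelium stood at similar levels in both libraries. All 5 that passed the minimum were within 2-fold, summing to 173.2 FPKM in the normal cat and 177.7 FPKM in the affected cat, with SLC4A11 at 21.3 and 17.7 FPKM and ZP4 at 0 in both. Of 5 trabecular meshwork markers that passed the minimum 3 were 2-fold higher and 1, MGP, was lower, with sums of 668.1 and 460.8 FPKM, and RSPO4 was listed at 0 in the affected library. CHI3L1, 1 of the 3 higher, passed only through the affected library.

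The multiplexins went in opposite directions. COL18A1, the source of endostatin and a chain of ocular basement membranes, lies on chromosome C2 at 1230322 to 1338437 and was listed at 89.0 FPKM in the normal cat and 239.3 FPKM in the affected cat. It was 2.69-fold higher with a log2 ratio of 1.42, and was the highest of the higher chains that had a value above 0 in both libraries. Its span is listed in full also for SLC19A1, at 11.0 and 24.1 FPKM with a log2 ratio of 1.07. Reads of the 2 loci cannot be told apart where they overlap, but the shared span does not show whether their exons do. COL15A1, its relative in vessels and muscle, was at 24.8 and 2.14 FPKM, 11.6-fold lower with a log2 ratio of -3.04. Of 7 measured markers of ciliary epithelium 2 were 2-fold higher and 1, CA2, was 2-fold lower, with sums of 1178 FPKM in the normal cat and 2232 FPKM in the affected cat. OPTC, which is secreted by that epithelium into the vitreous, was at 351.0 and 1235 FPKM. The part of the ciliary epithelium in the COL18A1 value was not tested.

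The transmembrane chains included both directions as well. COL17A1, the hemidesmosome collagen that anchors surface epithelia, was at 27.1 FPKM in the normal cat and 1.49 FPKM in the affected cat, 18.1-fold lower with a log2 ratio of -3.49. COL23A1, a transmembrane collagen, was at 5.87 and 15.4 FPKM with a log2 ratio of 1.26. COL25A1, a collagen of neurons, was at 2.18 and 1.95 FPKM and COL13A1, found at cell adhesions, at 1.85 and 1.53 FPKM, with log2 ratios of -0.11 and -0.17. COL26A1, counted with the other collagens but in none of their groups, was at 24.3 and 4.09 FPKM with a log2 ratio of -2.31. Surface epithelium markers were also lower, as 9 of 11 markers of corneal and conjunctival epithelium were 2-fold lower and 1, CLDN1, was 2-fold higher. KRT14, TP63 and DSG3, among the lower markers, passed the minimum only through the normal library. They summed to 1071 FPKM in the normal cat and 132.2 FPKM in the affected cat, with KRT12, the cornea-specific keratin, at 299.1 and 3.27 FPKM and ALDH3A1 at 475.3 and 79.2 FPKM. No marker of the list was at 0, and its part in the COL17A1 value was not tested.

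Over the 16 other chains, 14 passed the minimum, of which 10 were 2-fold lower, 2 were 2-fold higher and 2 lay between. The median log2 ratio was -2.25 and the sums were 1126 FPKM in the normal cat and 446 FPKM in the affected cat. Without COL18A1 the sums were 1037 and 206.2 FPKM.

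Chains that share a molecule kept their proportions in some types and not in others. The level of COL4A1 over that of COL4A2 was 1.13 in the normal cat and 1.27 in the affected cat, and that of COL6A1 over COL6A2 was 0.835 and 0.751. These 2 pairs, each the core of its heterotrimer, thus stayed close to 1 in both libraries. COL4A3 over COL4A4 was 0.778 and 1.16, but with the second COL4A3 locus added it was 1.19 and 1.74, above 1 in both libraries. COL4A5 over COL4A6, a pair added after the values were seen, was 1.28 and 2.67. COL6A3 over COL6A2 was 0.114 in the normal cat and 0.0551 in the affected cat, so the third chain of type VI was lower by more than its partner. COL8A1 over COL8A2 was 0.547 and 1.49, which turned the order of the type VIII chains. None of these shifts has a replicate check.

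**Figure D4:**
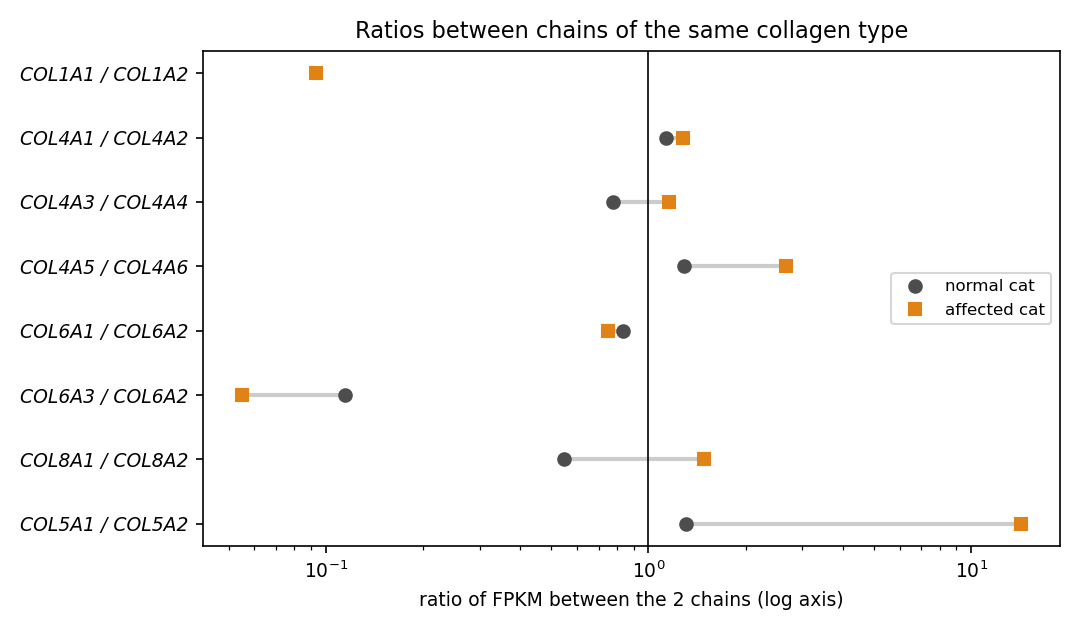
Ratio of the FPKM of 2 chains of the same collagen type in the normal (grey circle) and affected (orange square) cat, on a log axis with a line at equal levels. COL4A1 to COL4A2 and COL6A1 to COL6A2 lie near the line in both, and COL8A1 to COL8A2 crosses it. COL1A1 to COL1A2 has no normal value because COL1A2 is listed at 0 there, and COL5A1 is taken from a locus that joins 2 names.

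Collagen loci that join more than 1 gene name were not members, since their values cannot be assigned to 1 gene. The locus beginning with COL5A1 was at 176.5 FPKM in the normal cat and 270.9 FPKM in the affected cat, a log2 ratio of 0.61, which is opposite in sign to its fibril partner COL5A2. Its level over that of COL5A2 was 1.31 in the normal cat and 14.2 in the affected cat. The locus that contains COL11A1 and 5 more names was at 106.9 and 23.0 FPKM, and that of COL7A1, the anchoring fibril, at 6.35 and 9.24 FPKM, with log2 ratios of -2.17 and 0.48. COL12A1 was not analysed here.

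The excluded vitreous chains differed in the other direction. COL2A1 was listed at 334.5 FPKM in the normal cat and 1203 FPKM in the affected cat, and all 4 vitreous chains were at least 2-fold higher, with a median log2 ratio of 1.90 and sums of 1613 and 5715 FPKM. With 1 library per condition the difference between these 4 and the 36 other chains was not tested. Markers of tissues next to the dissected angle differed between the libraries too. Of 7 photoreceptor markers 6 were 2-fold higher, with sums of 339.2 and 1459 FPKM and RCVRN at 149.3 and 513.8 FPKM, where CNGA1 passed only through the affected library. Of 10 lens markers 6 were 2-fold higher and 1 was lower, with sums of 29599 and 39958 FPKM and CRYBA1 at 12676 and 14523 FPKM. Of 5 cartilage markers 1 was higher and 2 were lower, with sums of 52.7 and 28.5 FPKM and LECT1 at 37.6 and 19.3 FPKM, where ACAN, lower, and COMP, higher, each passed through 1 library alone. All 8 markers of cell division were 2-fold lower, with sums of 128.0 and 19.6 FPKM and BIRC5 at 23.7 and 7.19 FPKM, where MKI67 and BUB1 passed only through the normal library. The part of these tissues, or of the amount of each in the dissections, in the collagen values was not tested.

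The genes that make, process and bind collagen were examined as separate lists. Lists of enzymes, chaperones, proteases, cross-linkers and receptors held 43 measured genes, of which 41 passed the minimum. Of these 10 were 2-fold lower, 4 of them by 4-fold, none was 2-fold higher, and the median log2 ratio was -0.59. Over all loci the shares were 8.75% for 2-fold lower, 1.79% for 4-fold lower and 8.14% for 2-fold higher. LOXL4 came nearest to 2-fold higher, with a log2 ratio of 0.99. The pseudocount of 1 FPKM bears on this count. With a pseudocount of 0.1 FPKM, 12 genes were 2-fold lower and 2 were 2-fold higher. These 2 were LOXL4, at 1.26 FPKM in the normal cat and 3.49 FPKM in the affected cat, and PCOLCE2, at 5.62 and 11.3 FPKM.

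Among the enzymes that hydroxylate and glycosylate the chains, 2 of 11 were 2-fold lower. P4HA1, a catalytic subunit of prolyl 4-hydroxylase, was listed at 118.5 FPKM in the normal cat and 43.4 FPKM in the affected cat, with a log2 ratio of -1.43, and P4HA3, an alternative subunit, was the other. P4HB, the shared second subunit, was at 200.4 and 201.3 FPKM. Among the genes of folding and export 1 of 9 was 2-fold lower, a share near the 8.75% of all loci and so no result about the list. That gene was SERPINH1, the collagen-specific chaperone, at 288.7 and 90.4 FPKM with a log2 ratio of -1.66.

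The lowest log2 ratios of these lists were those of genes for propeptide cleavage and for assembly. Of 6 genes of propeptide cleavage 3 were 2-fold lower. PCOLCE, the enhancer of C-propeptide cleavage of fibrillar collagens, was at 478.8 FPKM in the normal cat and 37.8 FPKM in the affected cat, 12.7-fold lower with a log2 ratio of -3.63. BMP1, the C-propeptide protease it assists, was at 38.6 and 11.0 FPKM, and ADAMTS2, the N-propeptide protease, at 18.9 and 8.81 FPKM, with log2 ratios of -1.72 and -1.02. Of 8 genes of cross-linking and assembly 3 were 2-fold lower. DPT, a fibril-binding matrix protein, was at 42.5 and 0.247 FPKM with a log2 ratio of -5.13, and was under the minimum in the affected library. FN1, the fibronectin on which fibrils assemble, was at 123.7 and 15.7 FPKM, and LOX, the lysyl oxidase, at 27.4 and 5.71 FPKM, with log2 ratios of -2.90 and -2.08. The related oxidases LOXL1 and LOXL2 were within 2-fold, with log2 ratios of 0.28 and 0.0048. Of 7 collagen receptors that passed the minimum 1, ITGA2, was 2-fold lower, which passed only through the normal library and with so few genes is also near the 8.75% of all loci, and ITGB1, the common beta subunit of the collagen-binding integrins, had a log2 ratio of -0.65.

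**Figure D5:**
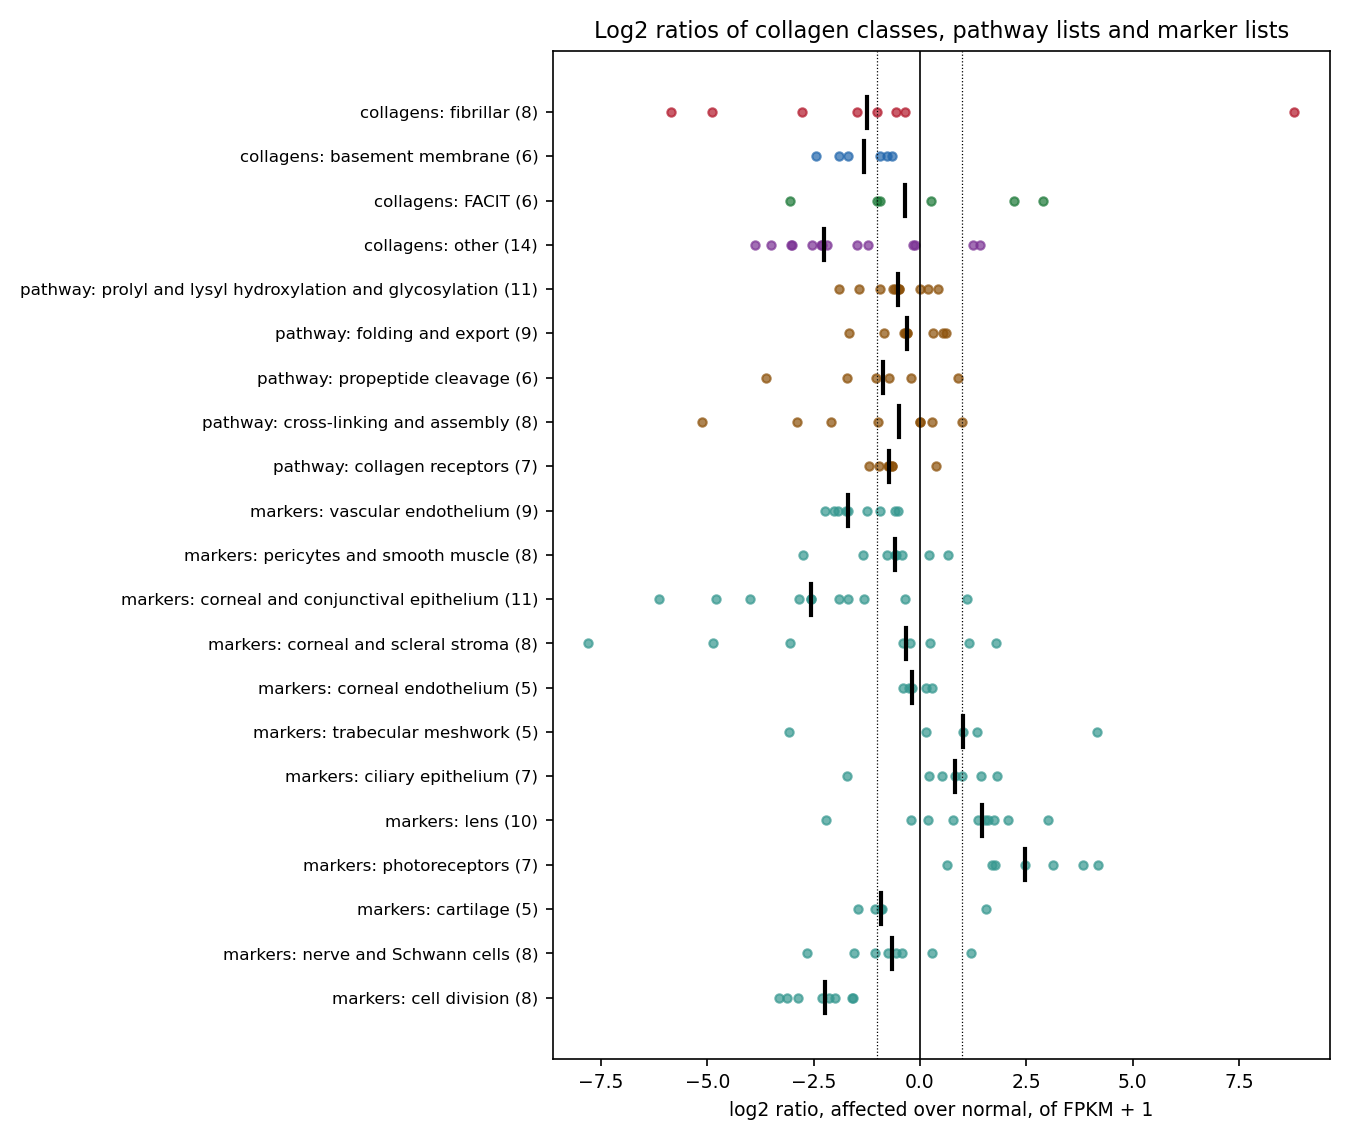
Log2 ratio of FPKM + 1, affected over normal, of each gene past 1 FPKM (points) with the median (black bar) in each collagen class, pathway list and marker list, with the number of genes in brackets and dotted lines at 2-fold. The medians of the collagen classes run from -2.25 (other) to -0.34 (FACIT), those of the pathway lists stay within 2-fold, and those of the photoreceptor and lens markers are positive. The fibrillar point at the far right is COL1A2, which is listed at 0 in the normal library.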

How the data were processed

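RNA of the iridocorneal angle was measured in 2 libraries, 1 from a normal and 1 from an affected cat, grouped by the disease state in the labels. The deposited values are FPKM per locus. The authors used TopHat 2.0.9 for alignment to felCat5, guided by Ensembl gene models, and Cufflinks 2.1.1 for the FPKM. Their scaling between the libraries is not given in the sources used here.

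Log2 ratios used a pseudocount of 1 FPKM, no rescaling and a minimum of 1 FPKM in at least 1 library. Where a name stood on several loci, the one with the higher mean was used. With 1 library per condition no test was made and no p-value calculated. No count model was fitted, because FPKM are normalised values. The fragment scale was taken as the step for which values up to 0.3 FPKM at unnamed loci of 400 to 1500 bases came out as whole fragments. At 2511 loci of the normal and 2264 of the affected library, 97.9% and 97.8% of values came out whole to within 0.03, where chance gives 6%, and the scale informs on counting error only.

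The collagen chains, the classes, the pathway and marker lists and the alternatives were chosen with earlier results of these data known. The text names every member, pathway genes with a mean of at least 10 FPKM past 2-fold, and up to 3 markers a list by mean level. P4HB, LOXL1, LOXL2, LOXL4, PCOLCE2, P4HA3, ITGA2, ITGB1 and some markers outside that rule were named after their values were seen. Of 55 listed pathway names, which include older symbols of the same genes, 43 were found.

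Positions are those of the deposited table, written 1-based. Where loci share a listed span, it cannot be taken as the extent of 1 gene, and it does not show whether their exons overlap. The RefSeq genes of a later cat assembly were used only for which genes neighbour each other, with 5 genes on each side in the table sought within 15 genes in RefSeq. Alternatives were another pseudocount, other scalings, filters and thresholds, the mean of a class, summed repeated names, and left-out members. The calculations were tested on simulated data and were run in Python 3.11.15 with pandas 2.3.3 and numpy 2.4.6, and figures were drawn with matplotlib 3.10.9.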

Additional observations from a re-analysis of the deposited data

How the results depend on the processing

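No paired analysis was possible because normal and affected are 1 library each, and no alternative can stand in for replicates. Of the single chains, 136 values under other settings were calculated, 29 moved by over 0.1 on the log2 scale and 0 changed sign. Of the summary values under other settings, 81 stayed, 38 moved and 2 turned sign. Setting the median of loci averaging 5 FPKM or more, which was 0.023, to 0 moved none of the 34 chains that passed the minimum by over 0.1. COL27A1 and COL21A1, at log2 ratios of -1.0001 and -1.02, lie close enough to 2-fold that a small shift could move them across it. Under the other scalings and the other pseudocount both stayed past it. Depth limits mainly chains near 1 FPKM, such as COL20A1.

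With each library brought to a sum of 1000000 FPKM, which also makes the pseudocount relatively smaller, the log2 ratios of single chains shifted by -0.35 to 0.57 and 12 of 34 moved by over 0.1. The median log2 ratio there was -1.63 over all chains and -1.44 over the fibrillar class, and 1 pathway gene was 2-fold higher. With a pseudocount of 0.1 FPKM the medians were -1.85 over all chains, -1.82 fibrillar, -0.24 FACIT and -2.44 other, and 2 pathway genes were higher. Single chains shifted most there, by -1.89 to 3.32, and 17 of 34 moved by over 0.1. The largest shift was that of COL1A2 with its listed 0. Both settings weigh low genes more by construction. Without a minimum the medians were -1.12 over all chains and -1.83 other. With a mean of at least 5 FPKM they were -2.18 over all chains, -3.83 fibrillar, -0.94 FACIT and -2.43 other, from fewer genes. At 4-fold, 3 chains were higher and 13 lower, and 4 pathway genes were lower. The 3 higher were COL1A2, COL19A1 and COL22A1, each with a doubt given with its class, and of the 13 lower COL8A2 shares its span with another locus. The mean in place of the median gave -1.16 over all chains, -1.01 fibrillar, 0.056 FACIT and -1.65 other, so the FACIT class turned sign.

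Without COL1A2, which is listed at 0, the medians were -1.48 over all chains and -1.48 fibrillar, and the log2 ratios of the sums were -2.46 and -5.19, against -1.87 and -2.52 with it. Without the largest chain of each, the log2 ratios of the sums were -0.87 over all chains, -0.22 fibrillar, -1.35 basement membrane, 0.067 FACIT and -0.99 other. The FACIT sum turned sign there because COL16A1 was left out and COL19A1 and COL22A1 remained in it. With repeated names summed, COL4A3 over COL4A4 was 1.19 in the normal cat and 1.74 in the affected cat, because the second COL4A3 locus was added.

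The following were added after the data were examined. With the joined COL5A1, COL7A1 and COL11A1 loci, the median over all chains was -1.21 and the log2 ratios of the sums were -1.65 over all chains and -2.01 fibrillar. Without COL19A1 and COL22A1, 3 chains were higher, the medians were -1.48 over all chains and -0.98 FACIT, and the FACIT sum had a log2 ratio of -1.61. Without COL1A1 and COL1A2 the fibrillar sum had a log2 ratio of -3.77.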
